A study of Mus musculus with 6 samples.

Results

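Smooth muscle contracts with a set of proteins that other cell types of the vessel wall make little of, and the RNA of 10 of their genes was followed here in mouse aorta at 2 ages. The genes are Acta2, Tagln, Myh11, Cnn1, Smtn, Myl9, Lmod1, Actg2, Des and Synpo2. They were chosen as parts of the contractile apparatus, by symbol, with no measured value in the rule. The choice, like that of the other gene lists below, was made with earlier results of these data known. The genes were found as 10 of the 55335 genes of the count table. All 10 were among the 16612 genes with enough counts to be tested.

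The 6 libraries came from aorta of wild-type (WT) C57BL/6 mice, 3 mice aged 6 weeks (young) and 3 mice aged 6 months (aged), with no treatment named for either group. A mouse of 6 months is a mature adult, although the study calls it aged. The study took a piece of vessel from each mouse after the fat around it was dissected away, so each library holds the RNA of all cells of the wall together. A lower level of a smooth muscle gene in such tissue can come from fewer smooth muscle cells or from less of the RNA in each cell, and these cannot be told apart. The comparison asks how the contractile genes differ between the ages.

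Between 31049632 and 45832185 reads were counted to genes per library. Young replicate 1 stood apart from its group. It had 14806 counts of Xist, an RNA of female cells, where the other libraries had 7 to 24, and 53 counts of the Y-linked Ddx3y, where the others had 1488 to 2117. The mice were described as male, so fold changes of Myh11, Smtn, Lmod1 and Des are also given without this library. For the other genes they are not given gene by gene. The genes of the mitochondrial genome took 14.9% to 21.2% of the counts in young and 23.1% to 30.4% in aged libraries, without overlap. With 3 libraries against 3, an exact two-sided permutation test of a single value cannot go below p = 0.1, and none was run.

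In a smooth muscle cell, myosin made of heavy chains and light chains pulls on filaments of smooth muscle actin. Calcium bound to calmodulin switches on myosin light chain kinase, which phosphorylates the regulatory light chain, and myosin phosphatase reverses this step. Most of the genes of the apparatus are switched on by serum response factor (Srf) with its partner myocardin (Myocd). Srf binds a short DNA element called the CArG box. Smooth muscle cells that divide or make matrix lose much of this programme, and this change of state is well known from injured and diseased arteries.

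Levels of different genes were compared per length, as FPKM (fragments scaled to the length of the gene and the depth of the library, as deposited). Acta2, the actin of vascular smooth muscle, was the most abundant of the 10, with FPKM of 6865 ± 1266 (SD, n = 3) at the young age and 5144 ± 762 (SD, n = 3) at the older one. It ranked between 14 and 20 among all genes of each library. Next came Myl9, with 3189.8 ± 632 and 3109 ± 729.5 FPKM (young, then aged, SD, n = 3 each), and Tagln, with 3395 ± 189.9 and 2888 ± 539. These neighbours could not be ordered, since Myl9 was above Tagln in 3 of 6 libraries. Myh11 came next at a mean of 946 FPKM over the 6 libraries, below every Tagln value and above every Cnn1 value. The neighbours Cnn1, Smtn, Lmod1 and Actg2, with means of 488, 309, 202 and 146 FPKM, overlapped in their ranges pair by pair. Within libraries, Cnn1 was above Smtn and Lmod1 above Actg2 in 6 of 6, and Smtn above Lmod1 in 5 of 6. Synpo2 at 42.6 FPKM and Des at 20.3 FPKM were the lowest, each apart from its neighbour in all libraries. On this scale, which carries no TMM factor, every aged library was below every young one in 5 of the 10 (Myh11, Cnn1, Smtn, Lmod1 and Actg2), which held for 20.9% of all genes tested.

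**Figure D1:**
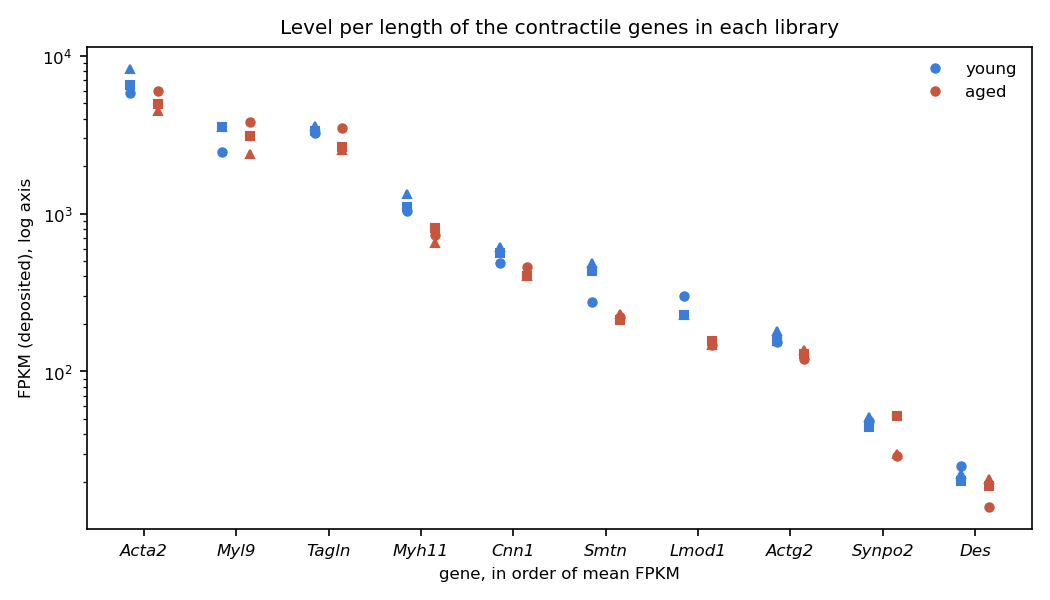
Deposited FPKM of the 10 contractile genes on a log axis, 1 point per library, in order of the mean over the 6 libraries (blue young, red aged; circle, square and triangle mark replicates 1, 2 and 3). The levels run from 8255 FPKM for Acta2 in young replicate 3 down to 13.8 for Des in aged replicate 1.

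The 10 genes together took 3.83%, 4.32% and 5.01% of the counts in young replicates 1, 2 and 3, and 3.70%, 3.22% and 2.85% in aged replicates 1, 2 and 3. Every aged library was below every young library in this share. Of the counts outside the mitochondrial genome, the share was 4.86%, 5.19% and 5.89% in young and 4.81%, 4.39% and 4.10% in aged libraries, and the groups still lay apart, by less than 0.1 percentage points at the nearest pair. After TMM normalization, which sets the scale of each library by the bulk of its genes, the sum was 36258, 39569 and 45309 CPM (counts scaled to a common library total) in young and 39271, 34442 and 32225 CPM in aged aorta. On that scale the groups overlapped. Tests below use the TMM scale unless another is named, except that DESeq2 scales libraries in its own way. Fold changes are log2 values of aged over young.

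None of the 10 genes passed the test at an adjusted p of 0.05 (edgeR's quasi-likelihood test, Benjamini-Hochberg adjustment over all genes tested), and the same test called 0% of all genes. DESeq2 called 2.26% of the genes to which it gave an adjusted p, and none of the 10. The smallest DESeq2 adjusted p among the 10 was 0.183, for Lmod1. At an unadjusted p below 0.05 the edgeR fit had 3 of the 10 lower in aged aorta, Smtn, Lmod1 and Myh11, where 4.82% of all genes were lower by that rule. It had 0 of the 10 higher, where 5.56% of all genes were. In all, 9 of 10 log2 fold changes were below 0 (all 10 with total-count scaling or on FPKM), and the median of the 10 was -0.17, beside 0.020 for all genes tested. Without young replicate 1, 8 of the 10 were below 0, and these medians were -0.19 and 0.046. In 2 genes, Myh11 and Lmod1, every aged library was below every young library, which held for 8.78% of all genes. In 0 of the 10 was every aged library above every young one, which held for 7.74% of all genes.

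**Figure D2:**
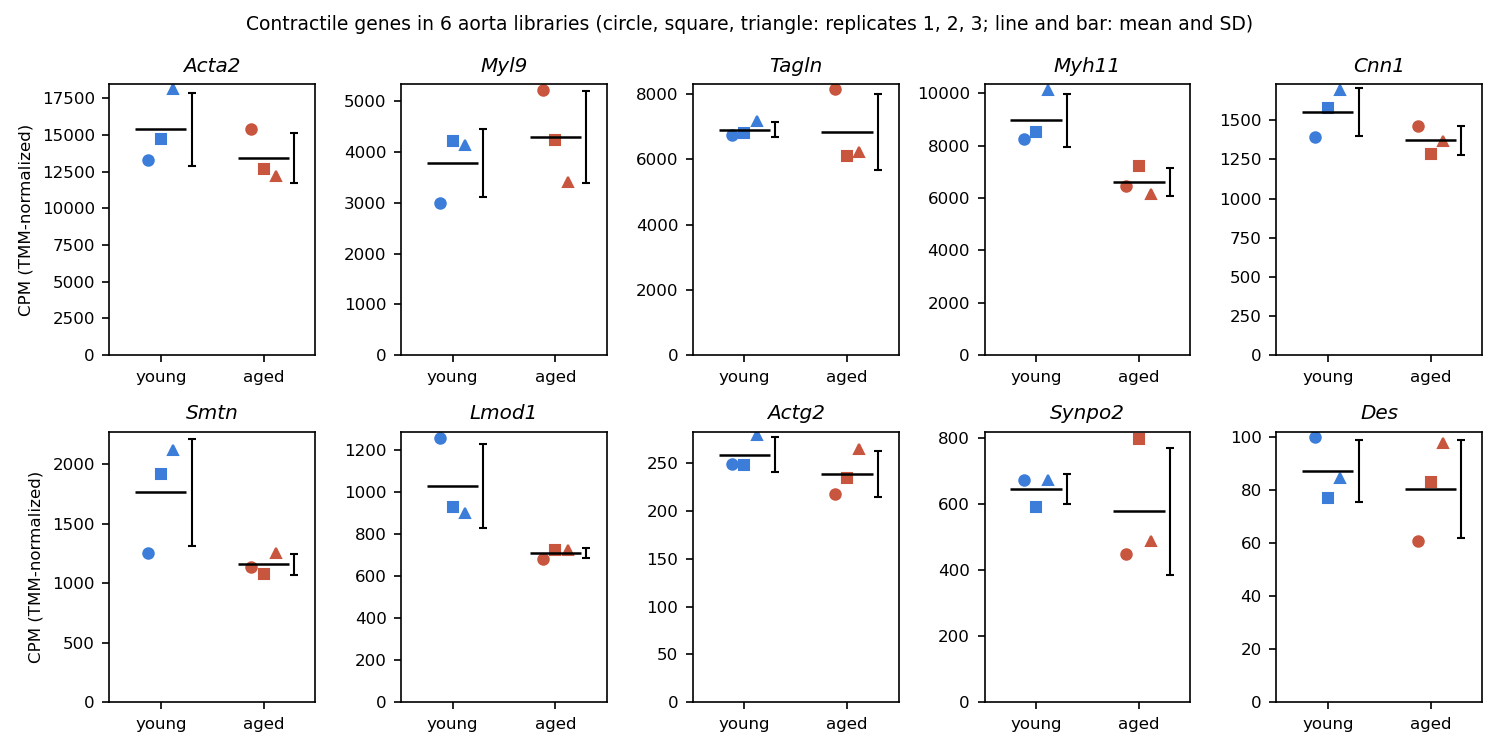
TMM-normalized CPM of each contractile gene in the 6 libraries, each panel starting at 0 (blue young, red aged; circle, square and triangle mark replicates 1, 2 and 3; the line is the mean and the bar the SD, n = 3). Myh11 and Lmod1 show no overlap between the ages, Smtn overlaps by less than 1 CPM through young replicate 1, and the other 7 genes overlap.

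The motor came first. Myh11 (ENSMUSG00000018830; GRCm38 chromosome 16, 14194535 to 14291372, minus strand) encodes the heavy chain of smooth muscle myosin, the protein most confined to smooth muscle cells. It was at 8259.7, 8524 and 10139 CPM in young replicates 1, 2 and 3 and at 6479, 7220.4 and 6152 CPM in aged replicates 1, 2 and 3. The aged libraries all lay below the young ones, with young replicate 3 the highest. Its log2 fold change was -0.44 (SE 0.18), with an unadjusted p of 0.0477 and an adjusted p of 0.474 (edgeR). Without young replicate 1 it was -0.49.

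Myl9 (ENSMUSG00000067818; chromosome 2, 156775420 to 156781658, plus strand) encodes the regulatory light chain that is phosphorylated when the muscle contracts. Its level was 3004, 4213 and 4134 CPM in young and 5219, 4236 and 3417 CPM in aged aorta. Young replicate 1 was the lowest and aged replicate 1 the highest library, with the others between and mixed. It was the only one of the 10 with a positive log2 fold change, 0.18 (SE 0.23; edgeR adjusted p = 0.801), and the sign turned to -0.053 when libraries were scaled by total counts alone and to -0.044 on the deposited FPKM. The motor's heavy and light chains thus had different signs on the TMM scale. Within a library the log2 ratio of Myh11 to Myl9 CPM, a pair picked after the values were seen, was 1.46, 1.02 and 1.29 in young and 0.31, 0.77 and 0.85 in aged aorta. These ratios do not depend on the scale of a library, and all aged values lay below all young values. The share of all gene pairs without overlap was not computed. Myh11 is a long and Myl9 a short gene (7599 and 1162 exonic bases), and the part of length in the ratio was not tested.

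Of the actins, Acta2 (ENSMUSG00000035783; chromosome 19, 34241090 to 34255590, minus strand) forms the thin filaments of vascular smooth muscle. It was at 13318, 14693 and 18119.6 CPM in young and 15388, 12683 and 12229 CPM in aged aorta. Young replicate 3 was the highest and aged replicate 3 the lowest, but young replicate 1 lay below aged replicate 1. The log2 fold change was -0.19 (SE 0.21; edgeR adjusted p = 0.760), and it ranged from -0.43 to -0.053 over the alternative settings. Acta2 made up between 39.7% and 45.0% of the summed FPKM of the 10 genes in each library.

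Actg2 (ENSMUSG00000059430; chromosome 6, 83512905 to 83536265, minus strand) encodes the gamma actin typical of visceral smooth muscle such as gut and bladder. It had 249, 247 and 279 CPM in young and 217, 234 and 264 CPM in aged aorta. The highest aged library lay within the young range and the other 2 below it. Aged over young, the log2 fold change was -0.12 (SE 0.15; edgeR adjusted p = 0.802). The 2 actins are alike enough that a short read could fit both, so their coding sequences were compared. The first bases of each reading frame are printed to show how the difference is spread, with capitals for bases that differ from the other gene or have no partner in it (GENCODE M21 transcripts, GRCm38).
Acta2, coding bases 1 to 90: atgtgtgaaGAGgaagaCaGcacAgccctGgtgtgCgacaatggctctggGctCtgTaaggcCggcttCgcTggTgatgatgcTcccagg
Actg2, coding bases 1 to 87: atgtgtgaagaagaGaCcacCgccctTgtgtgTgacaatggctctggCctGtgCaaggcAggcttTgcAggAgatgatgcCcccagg
Over the whole frame 84.2% of aligned bases were the same, and the longest run without a difference was 29 bases. No stretch of 50 bases, the read length of the study, was shared between Acta2 and Actg2 transcripts. Of all such stretches of Acta2, 0.326% were also in Actg1, the cytoplasmic gamma actin, and its pseudogenes, and 0% of those of Actg2 were in another gene. For Myh11, 0.34% were shared with Myh9 or Myh10, the non-muscle myosins.

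The largest set among the 10 are proteins that sit on the actin filament. Tagln (ENSMUSG00000032085; chromosome 9, 45929619 to 45936058, minus strand) encodes transgelin, an actin-binding protein that is an early marker of the smooth muscle state. It had 6751, 6801 and 7168 CPM in young and 8175, 6101 and 6230.3 CPM in aged aorta. Aged replicate 1 was above and the other 2 aged libraries were below all young libraries, which were close together. With -0.015 (SE 0.19; edgeR adjusted p = 0.984) it had the log2 fold change nearest to 0, whose sign turned when young replicate 3, aged replicate 2 or aged replicate 3 was left out (0.019, 0.062 and 0.049). An antisense gene, Gm48529, lies across 62.4% of the exonic bases of Tagln on the other strand. No gene of the count table carried that symbol, and whether reads were counted by strand is not given in the sources used here.

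Cnn1 (ENSMUSG00000001349; chromosome 9, 22099216 to 22109630, plus strand) encodes calponin, which binds actin and slows the myosin motor. It had 1390.1, 1578 and 1694 CPM in young and 1466, 1282 and 1368 CPM in aged aorta. Aged replicate 1 lay above young replicate 1, and the other libraries of the groups did not cross. This gave a log2 fold change of -0.18 (SE 0.16; edgeR adjusted p = 0.712).

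Smtn (ENSMUSG00000020439; chromosome 11, 3517523 to 3540612, minus strand) encodes smoothelin, an actin-binding protein found in contractile smooth muscle. It had 1255, 1916 and 2119 CPM in young and 1136, 1082 and 1256 CPM in aged aorta. Young replicate 1 was level with aged replicate 3, and the other young libraries were well above all aged ones. Its log2 fold change was the most negative of the 10, -0.61 (SE 0.23), with an unadjusted p of 0.0309 and an adjusted p of 0.443 (edgeR). Without young replicate 1 it was -0.79, and with young replicate 1 and aged replicate 2 both left out it was -0.75 (edgeR adjusted p = 0.170). An overlapping gene on the other strand, Gm11946, had between 45 and 417 counts in the same libraries, which is 0.119% to 0.625% of the counts of Smtn.

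Lmod1 (ENSMUSG00000048096; chromosome 1, 135324807 to 135368065, plus strand) encodes leiomodin, which starts new actin filaments in smooth muscle. It had 1257, 927 and 901 CPM in young and 681, 722 and 724 CPM in aged aorta. The 3 aged libraries were close together and below all young ones, and young replicate 1 was by far the highest. The log2 fold change was -0.54 (SE 0.18), with an unadjusted p of 0.0218 and an adjusted p of 0.415 (edgeR). It moved to -0.36 without young replicate 1, a change of 1.5 times, and its unadjusted p then no longer passed 0.05.

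Synpo2 (ENSMUSG00000050315; chromosome 3, 123076519 to 123236149, minus strand) encodes an actin-bundling protein of dense bodies and Z-discs. It had 674, 592 and 672 CPM in young and 449, 799 and 487 CPM in aged aorta. Aged replicate 2 was above all young libraries and the other 2 aged libraries below them all. The log2 fold change was -0.16 (SE 0.25; edgeR adjusted p = 0.834), and -0.46 without aged replicate 2, where the unadjusted p passed 0.05 but the adjusted p was 0.312.

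Des (ENSMUSG00000026208; chromosome 1, 75360329 to 75368579, plus strand) encodes desmin, the intermediate filament of muscle cells, which heart and skeletal muscle also make. It had 99.9, 77.1 and 84.7 CPM in young and 60.8, 82.9 and 97.6 CPM in aged aorta. The groups overlapped across most of their range, with young replicate 1 the highest and aged replicate 1 the lowest. Its log2 fold change was -0.12 (SE 0.21; edgeR adjusted p = 0.859) and its sign turned without young replicate 1 (0.002) or aged replicate 1 (0.048).

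The 3 genes with an unadjusted p below 0.05 did not hold that mark through every library left out. Smtn kept it without young replicate 1 or aged replicate 3, Lmod1 without young replicate 2, young replicate 3 or aged replicate 2, and Myh11 without young replicate 1. Without aged replicate 1, 0 of the 10 genes had it. Leaving out young replicate 1 and aged replicate 2 together, chosen after the values were seen, left 3 genes with it, Myh11, Smtn and Synpo2. In that setting 7.08% of all genes were lower by the same rule.

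The genes also differed in where their highest and lowest levels lay. The highest library was young replicate 3 for 5 genes (Acta2, Myh11, Cnn1, Smtn and Actg2), young replicate 1 for 2 (Lmod1 and Des), aged replicate 1 for 2 (Tagln and Myl9) and aged replicate 2 for 1 (Synpo2). The lowest was an aged library for 9 of 10, the exception being Myl9. In young replicate 3 all 10 genes were above their own mean over the 6 libraries, and in aged replicate 3 only 2 were. The mean of the 10 log2 levels, each centred on its own mean, was 0.036, 0.083 and 0.21 in young and -0.12, -0.080 and -0.14 in aged libraries. All aged values of this mean were below all young values, with young replicate 3 furthest from the rest.

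Among the other genes whose centred profile lay nearest to that mean, of 9143 with at least 10 CPM on average, were Dmwd, Sec24b, Srfbp1 and U2af2. Their root mean square difference from it over the 6 libraries was between 0.0412 and 0.0419 on the log2 scale. Srfbp1 encodes a protein that binds Srf, Sec24b a coat protein of vesicles leaving the endoplasmic reticulum and U2af2 a splicing factor. A profile over 6 libraries is shared by many genes, and the likeness is given as a description.

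The fold changes of the 10 were set against the length of their genes, because long and short genes differed across the whole table. Over all tested genes, the median log2 fold change was 0.18 for those with under 1000 exonic bases and -0.064 for those with over 6000. Among the 10, the 5 shorter genes (Myl9, Actg2, Tagln, Acta2 and Cnn1, with 1162 to 2736 exonic bases) had a median of -0.12, and the 5 longer ones (Des, Lmod1, Smtn, Myh11 and Synpo2, with 3754 to 13089) a median of -0.44. All 3 genes with an unadjusted p below 0.05 were in the longer set. Of the 10, 9 were below the median of all tested genes of their own range of length, the exception being Myl9. With an offset for length, added after the values were seen, the median of the 10 was -0.22, Smtn was at -0.58, Lmod1 at -0.52 and Myh11 at -0.36, and Smtn and Lmod1 but not Myh11 had an unadjusted p below 0.05 (edgeR).

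**Figure D3:**
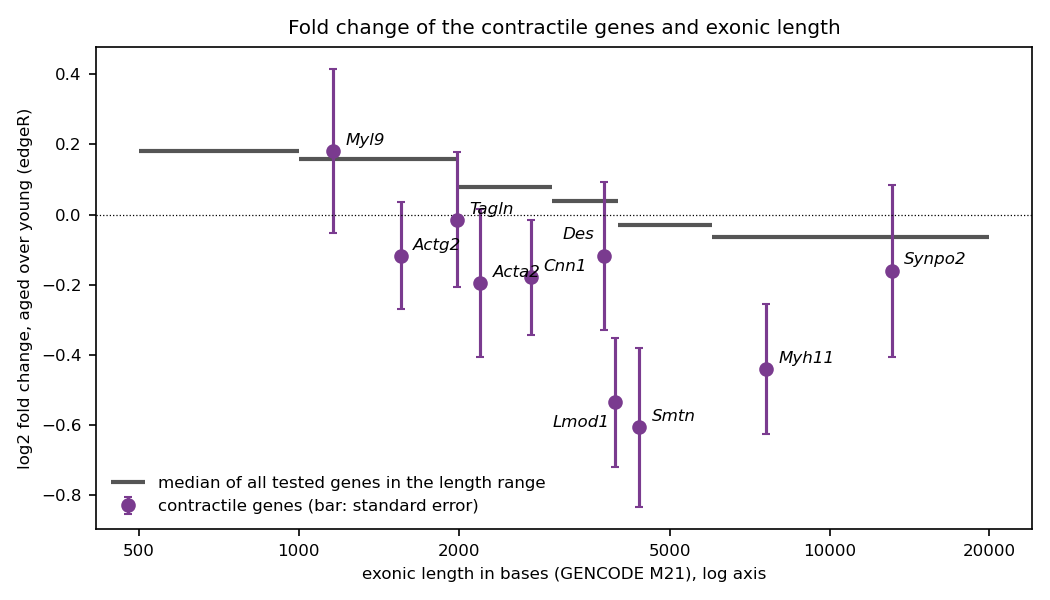
Log2 fold change of aged over young (edgeR, TMM) against exonic length on a log axis; purple points are the 10 contractile genes with their standard errors, and grey bars are the medians of all tested genes in 6 ranges of length. The grey bars step down from 0.18 to -0.064, and 9 of the 10 points lie below the bar of their own range, the exception being Myl9.

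Other genes of the contractile pathway were read from 4 lists of 57 genes, of which 56 were tested and Nkx3-2 was not. In all, 40 were lower and 16 higher in aged aorta, where 7958 of all 16612 genes were lower. At an unadjusted p below 0.05, 11 were lower and 2 higher, where 4.82% of all genes were lower and 5.56% higher, and 0 passed the adjusted threshold in edgeR. Several of the 11 were long genes, among them Ppp1r12b, Cald1, Myh10, Tln1 and Flna with 14983, 12041, 10458, 9801 and 9400 exonic bases. Srf and Fhl1, also among the 11, had 2893 and 3714, and the 2 higher genes, Tpm4 and Klf4, had 2203 and 3049. With the offset for length, 10 were lower at that p, where 4.48% of all genes were (edgeR). The part of length in these counts was not tested. DESeq2 called 3 of the 56 lower, Srf, Fhl1 and Myh10. Among all genes it called 117 lower and 221 higher, together 2.26% of those to which it gave an adjusted p.

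The list of other thin filament and dense plaque genes had 22 members. Of these, 18 were lower and 4 higher, with a median of -0.23, and 6 were lower and 1 higher at an unadjusted p below 0.05 (edgeR; 4.82% and 5.56% of all genes). The 3 with the smallest p were Tpm1, Flna and Tln1. Tpm1, a tropomyosin that lies along the actin filament, had 949, 1092 and 1275 CPM in young and 742, 768 and 659 CPM in aged aorta (log2 fold change -0.61, SE 0.18; edgeR adjusted p = 0.381). Flna, filamin A, which crosslinks actin to the membrane, had 7737, 9264 and 9598 CPM in young and 5397, 6013 and 6246 CPM in aged aorta (-0.59, SE 0.18; edgeR adjusted p = 0.390). Tln1, talin, which ties actin to integrins, had a log2 fold change of -0.52 (SE 0.16). In these 3 genes, picked by their small p, all aged libraries were below all young ones. Over the whole list of 22, 7 genes were lower and 1 higher without overlap, as were 8.78% and 7.74% of all genes. The others of the 3 highest by FPKM, Csrp1 and Myl6, had -0.37 and -0.077 with overlapping groups, and -0.13 and 0.04 without aged replicate 2. The 1 gene higher at that p was Tpm4, a tropomyosin of non-muscle cells, at 0.59 (SE 0.21; edgeR adjusted p = 0.421), named after its values were seen.

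The switch that phosphorylates myosin had 14 genes, 10 of them lower and 4 higher, with a median of -0.097. In 2 of the 14 every aged library was below every young one, as in 8.78% of all genes. At an unadjusted p below 0.05, 1 of the 14 was lower, not far from the 4.82% of all genes lower by that rule (edgeR). This gene was Ppp1r12b, a targeting subunit of myosin phosphatase. It had 605, 715 and 924 CPM in young and 451, 446 and 541 CPM in aged aorta, without overlap (log2 fold change -0.64, SE 0.20; edgeR adjusted p = 0.390). Mylk, the light chain kinase, was at -0.29 (SE 0.21), and Ppp1r14a, an inhibitor of the phosphatase, at -0.093 (SE 0.26), both with overlapping groups. Without young replicate 3 they were at -0.098 and 0.11. Calm2, a calmodulin gene, was at 0.083 and Prkg1, the kinase of the relaxing nitric oxide signal, at -0.33, neither with an unadjusted p below 0.05 (edgeR).

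Of the 11 tested regulators, 9 were lower and 2 higher, with a median of -0.33. At an unadjusted p below 0.05, 3 were lower (Srf, Fhl1 and Myocd) and 1 higher (edgeR; 4.82% and 5.56% of all genes). In 2 of the 11 every aged library was below every young one, as in 8.78% of all genes. Srf had 49.8, 52.6 and 60.5 CPM in young and 33.6, 26.8 and 36.4 CPM in aged aorta, and every aged library was below every young one. Its log2 fold change was -0.75 (SE 0.17), with an adjusted p of 0.372 in edgeR and 0.0294 in DESeq2. Fhl1, a LIM protein of muscle, was at -0.65 (SE 0.17), with adjusted p of 0.377 in edgeR and 0.0483 in DESeq2. Myocd had 22.5, 33.3 and 57.5 CPM in young and 9.45, 17.9 and 25.4 CPM in aged aorta, where aged replicate 3 lay within the young range (-1.10, SE 0.44; edgeR adjusted p = 0.462), and its log2 fold change was -0.65 without young replicate 3. Klf4, a factor that represses the contractile programme, was the 1 gene higher at an unadjusted p below 0.05, at 0.71 (SE 0.27; edgeR adjusted p = 0.448), and at 0.44 without aged replicate 3.

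Promoters were searched for the element that Srf binds. The CArG box was searched as a pair of C, 6 bases of A or T, and a pair of G, a pattern that reads the same on both strands, with none or at most 1 C or G among the 6. The RefSeq promoter table (the bases around each transcription start, most of them before it, GRCm38.p6) held 7 of the 10 genes. A box without mismatch was in 1 of the 7, Myl9, and a box with at most 1 mismatch in 2, Acta2 and Myl9, where 1.63% and 9.98% of all 32851 promoters held one. Srf itself had 2 boxes without mismatch. Other pathway genes searched, without the non-muscle list, also held such a box at a promoter. These were Myl6 and Fhl1, and Vcl, Cnn2 and Fhl2, which are named only for their boxes. The stretches with the boxes of Acta2, Myl9 and Srf are printed 5′ to 3′ on the strand of the gene, with the boxes in capitals.
Acta2, chr19:34255383-34255472, minus strand: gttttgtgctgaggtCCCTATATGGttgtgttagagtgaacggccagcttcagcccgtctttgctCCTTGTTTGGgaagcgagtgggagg
Myl9, chr2:156775288-156775389, plus strand: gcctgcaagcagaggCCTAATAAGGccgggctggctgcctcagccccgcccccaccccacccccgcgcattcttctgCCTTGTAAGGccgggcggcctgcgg
Srf, chr17:46556200-46556259, minus strand: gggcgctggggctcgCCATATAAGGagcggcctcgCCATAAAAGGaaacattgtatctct
The boxes began 84 and 34 bases before the start of Acta2, 161 and 99 before that of Myl9, and 82 and 62 before that of Srf. Of these 3 genes, Srf had aged libraries apart from the young ones, and Acta2 and Myl9 overlapped and had opposite signs on the TMM scale. No match says only that these letters are not in this window.

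The non-muscle and embryonic cytoskeleton, which dividing smooth muscle cells use more, had 6 of 10 genes higher and 4 lower, with a median of 0.064. At an unadjusted p below 0.05, 2 were lower and 0 higher (edgeR; 4.82% and 5.56% of all genes). In 3 of the 10 every aged library was below every young one, as in 8.78% of all genes. Myh10, the non-muscle myosin heavy chain that is known as an embryonic marker of smooth muscle, had 770.5, 675 and 776 CPM in young and 359.6, 424 and 414 CPM in aged aorta. All aged libraries were far below all young ones. Its log2 fold change was -0.89 (SE 0.16), with an adjusted p of 0.306 in edgeR and 0.000201 in DESeq2. Cald1, caldesmon, which is made in muscle and non-muscle forms, was also lower at an unadjusted p below 0.05 (-0.47, SE 0.18; edgeR adjusted p = 0.450). The abundant Actb, Vim and Actg1 were at 0.14, 0.17 and 0.03, and Myl12b at 0.35, or 0.11 without aged replicate 1. The signs of Actb, Vim and Actg1 turned to -0.093, -0.059 and -0.20 when libraries were scaled by total counts alone, and were negative on the deposited FPKM too.

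**Figure D4:**
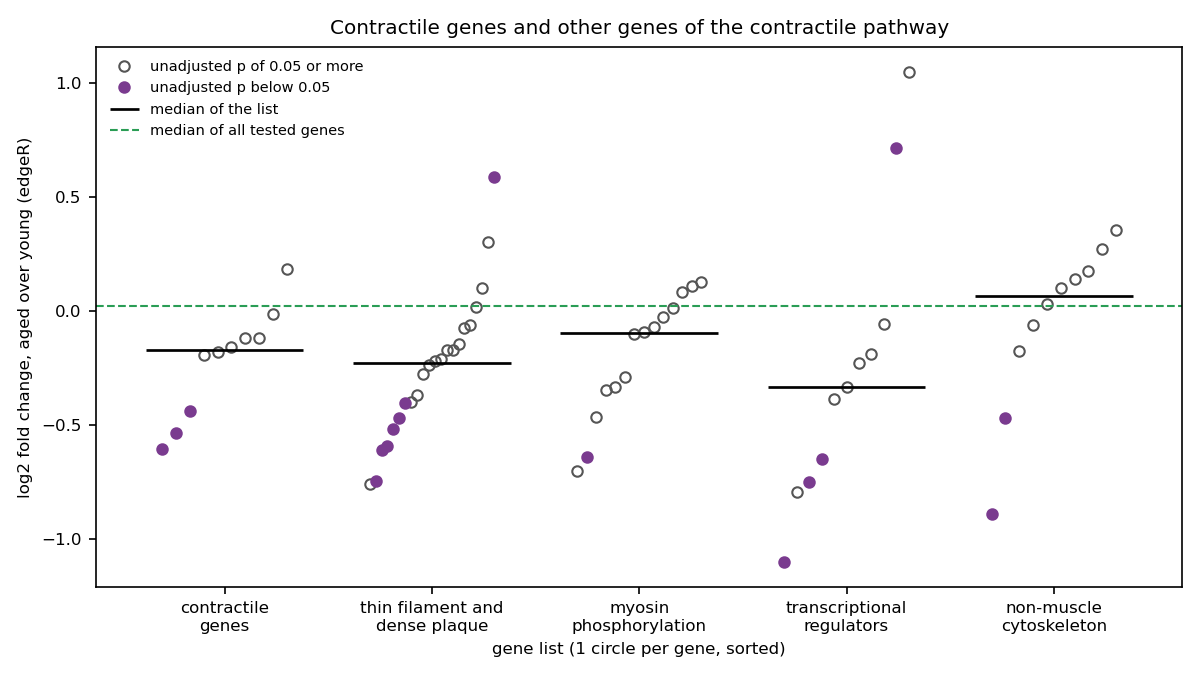
Log2 fold change of aged over young (edgeR, TMM) for the contractile genes and the tested genes of 4 other pathway lists, 1 circle per gene sorted within its list (filled, unadjusted p below 0.05; black line, median of the list; green dashed line, median of all tested genes). The medians are -0.17, -0.23, -0.097, -0.33 and 0.064 from left to right.

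Whether the levels moved with other cells of the wall was read from lists of markers, as summed CPM per library, and no list gene was at 0 in all libraries. Cardiac markers, 12 genes of which Actc1 and Myl7 were highest by FPKM, came to 473 CPM in young replicate 1 and to between 85.3 and 98.5 in the other 5 libraries. That library had the highest Des and Lmod1 and the lowest Myl9 of all. Skeletal muscle markers, 12 genes, came to between 10.5 and 26.3 CPM. Pericyte markers, 7 genes with Rgs5 and Pdgfrb the highest, came to between 1853 and 2048 CPM in young and between 1664 and 1863 in aged aorta.

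Fibroblast markers, 10 genes with Dcn and Col1a1 highest by FPKM, came to between 4092 and 6109 CPM in young aorta and to 10640.2, 3703 and 7917 in aged aorta. Macrophage markers, 10 genes with Lyz2 and C1qa highest, came to between 103 and 138 CPM in young and to 465, 148 and 319 in aged aorta. Gene by gene, 8 fibroblast markers were higher and 2 lower, and 10 macrophage markers were higher. At an unadjusted p below 0.05, 6 and 10 of these were higher and 0 lower (edgeR; 5.56% of all genes higher). DESeq2 called 3 and 5 of them, and edgeR 0 at the adjusted threshold. In both lists aged replicate 2 was the aged library nearest to the young ones, while among the contractile genes it had the highest Synpo2 and the lowest Tagln, Cnn1 and Smtn of all 6 libraries. Endothelial markers, 10 genes with Pecam1 and Eng highest, reached 1911 CPM in aged replicate 3, where the other 5 libraries had between 446 and 612. Adipocyte markers (10 genes, among them Fabp4 and Cfd) came to between 1121 and 3451 CPM, and brown adipocyte markers (6 genes, with Ucp1 and Cidea highest) reached 1914 in aged replicate 2 and were between 76.4 and 586 elsewhere. The part of these cells in the levels of the contractile genes was not tested.

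**Figure D5:**
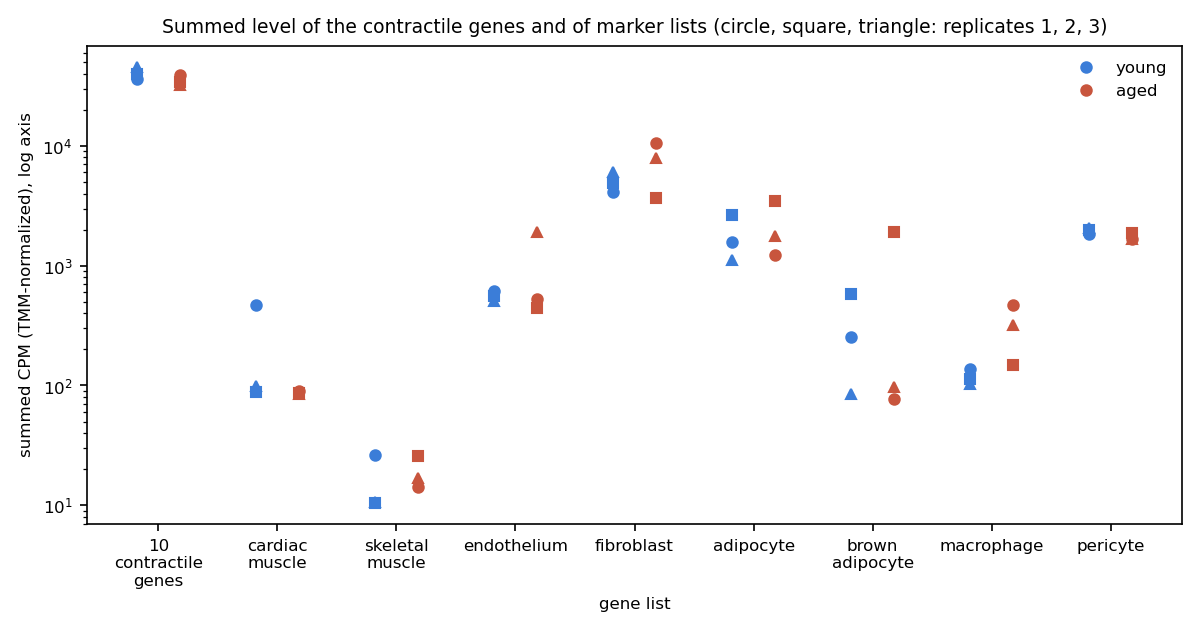
Summed CPM (TMM-normalized, log axis) of the 10 contractile genes and of 8 lists of markers of other cell types in the 6 libraries (blue young, red aged; circle, square and triangle mark replicates 1, 2 and 3). The contractile sum runs from 32225 to 45309 CPM, while cardiac markers reach 473 in young replicate 1 and endothelial markers 1911 in aged replicate 3.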

How the data were processed

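RNA of 6 aorta libraries was sequenced by the study from single ends of 50 bases. The authors deposited whole-number read counts per gene and FPKM per gene. The build named is mm10, and the aligner, counter, annotation and use of strand are not given in the sources used here. Of 55335 gene identifiers, 55154 were found in GENCODE M21 (GRCm38), the source of coordinates and exonic lengths.

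With R 4.3.3, counts were filtered in edgeR 4.0.16 (filterByExpr, minimum count 10, minimum total 15), scaled by TMM and fitted by quasi-likelihood without covariates. P values were adjusted by Benjamini-Hochberg over 16612 genes at 0.05. Code was tested on simulated data. DESeq2 1.42.0 and limma 3.58.1 on log2 FPKM (pseudocount 1 or 0.1) were alternatives, with RLE or total-count scaling, other filters, removal of mitochondrial genes, a replicate block, libraries left out, and, added after the data were seen, a length offset and young replicate 1 with aged replicate 2 left out.

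The members and lists were chosen with earlier results of these data known. Named are all 10 members, Srf, Myocd, the 3 genes of each pathway list with the smallest p and the 3 highest by FPKM, the 2 highest of each marker list, and the 5 nearest profiles. Genes outside this rule are said to be so, and 2 genes that it names are not reported here. A list of visceral smooth muscle and interstitial cell markers, summing to between 119 and 228 CPM, is not discussed further.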

Additional observations from a re-analysis of the deposited data

How the results depend on the processing

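In every setting tried, 0 of the 10 genes passed an adjusted p of 0.05. Log2 fold changes of Acta2, Myh11, Cnn1, Smtn, Lmod1, Actg2 and Synpo2 stayed below 0 in all 17 alternatives, while Tagln, Myl9 and Des turned in some. Scaling by total counts alone moved the median of all genes to -0.22, the median of the 10 to -0.41, the other pathway genes lower at an unadjusted p below 0.05 to 20 (of all genes, from 800 to 2501 were lower by that rule) and the members without overlap to 5, and turned Myl9 (-0.053), Calm2 (-0.15), Actb (-0.093), Actg1 (-0.20) and Vim (-0.059). With limma on log2 FPKM, at a pseudocount of 1 and of 0.1, the median of all genes was -0.12 and -0.19, that of the 10 was -0.40 in both and the other genes lower were 18 in both (2249 and 2221 of all genes), with Myl9 at -0.044, Calm2 at -0.16, Actb at -0.084, Actg1 at -0.18 and Vim at -0.060. On deposited FPKM 5 members did not overlap, all lower in aged aorta, where 20.9% of all genes tested were lower without overlap. For total-count scaling that share was not computed. DESeq2 called 338 genes, 3 of them other pathway genes. The length offset turned Calm2 (-0.025) and Actg1 (-0.011), and leaving out young replicate 1 with aged replicate 2 turned Tagln (0.048) and Myl6 (0.088). The TMM factors, which total-count scaling leaves out, were 1.06, 1.09 and 1.11 in young and 0.943, 0.936 and 0.886 in aged libraries, without overlap. The cause of these differences was not tested.

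With 1 library left out at a time, 0 to 2 members were lower at an unadjusted p below 0.05 (edgeR), where 2.28% to 5.57% of all genes were. The genes called numbered 0 to 110 (110 without aged replicate 2), and the other pathway genes lower by that rule 6 to 11. The members without overlap numbered 2 to 5. Without aged replicate 3 they were 4 lower genes and 1 higher gene, Myl9. The share of all genes without overlap was not computed for these settings, where 2 libraries against 3 part more easily. Log2 fold changes ran from -0.28 to 0.048 for Des, -0.16 to 0.062 for Tagln, -0.057 to 0.15 for Actg1, -0.32 to 0.11 for Ppp1r14a, -0.16 to 0.19 for Calm2 and -0.29 to 0.040 for Myl6. Without a change of sign they ran from -0.30 to -0.053 for Acta2, -0.25 to -0.11 for Cnn1, 0.016 to 0.32 for Myl9, -0.20 to -0.050 for Actg2 and -0.46 to -0.0074 for Synpo2. The replicate block called 0 genes and 0 members and gave a median of -0.18 for the 10. It left Smtn and Lmod1 as the 2 members lower at an unadjusted p below 0.05 (edgeR). By that rule 13 other pathway genes were lower, and 5.16% of all genes. Deviations of same-numbered libraries correlated at 0.085, 0.110 and 0.109, 1 of them under the limit of 0.1 for pairing. Each young library correlated best with the aged library of its own number. The reverse, from each aged library, was not checked.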

Other observations

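Within a library, the ratio of 2 genes does not depend on how the library is scaled. Beside Myh11 to Myl9, 3 further pairs were picked after the values were seen and are given with no test, of which 2 did not overlap between the ages and 1 did. Pairs picked that way favour ratios that part the ages, and the share of all gene pairs without overlap was not computed. Lmod1 and Tagln also differ in length (3948 and 1988 exonic bases), and the part of length in the ratios was not tested. The log2 ratio of Lmod1 to Tagln CPM was -2.43, -2.87 and -2.99 in young replicates 1, 2 and 3 and -3.58, -3.08 and -3.10 in aged replicates 1, 2 and 3. The log2 ratio of Myh11 to Myh10, the smooth muscle to the non-muscle myosin heavy chain, was 3.42, 3.66 and 3.71 in young and 4.17, 4.09 and 3.89 in aged aorta. Myh11 was thus lower in aged aorta as CPM and higher relative to Myh10. The log2 ratio of Smtn to Cnn1, which overlapped, was -0.15, 0.28 and 0.32 in young and -0.37, -0.24 and -0.12 in aged aorta. Against Acta2, the ratios of all 9 other contractile genes overlapped between the ages.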
